A study of Oryza sativa with 7 samples.

Results

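The Aux/IAA family of rice holds 31 genes, OsIAA1 to OsIAA31, and its expression was followed here in crown root primordia, the buds of shoot-borne roots that form inside the stem base. The 31 locus identifiers were taken in order along the chromosomes, out of 24775 identifiers in the series, and no measured value was used to choose them. RNA came from stem bases of wild-type seedlings of the cultivar IR64, 6 days old, in which cells were excised from tissue sections under a microscope by laser capture. The groups were primordia at outgrowth (replicates 1 and 2), primordia at initiation (replicates 1, 2 and 3) and ground tissue as the control (replicates 1 and 2), all of the same genotype, age and growth conditions. Of the 31 genes, 27 had reads in at least 1 library, 23 had reads in all 7 libraries, and 4 were listed in none of the tables.

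Aux/IAA proteins are short-lived repressors of auxin signalling. They bind auxin response factors (ARFs), the transcription factors of the pathway, and recruit TOPLESS-type corepressors to them. Auxin acts as a glue between an Aux/IAA protein and a TIR1/AFB receptor, which leads to the destruction of the repressor and frees the ARF. Many Aux/IAA genes are themselves switched on by auxin, so the family also works as negative feedback. Auxin signalling is needed for crown root initiation in rice, and stabilising mutations in several of these genes disturb root formation.

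Library totals ran from 8351775 reads in control replicate 1 to 25448025 in control replicate 2. Levels are given as CPM, counts per 1000000 reads of the library total. They are not scaled for gene length, so levels of different genes are not compared. The squared difference between initiation replicates 1 and 3 was 0.402 times what counting noise gives, against 28.8 times for replicates 1 and 2 of that stage. Since replicates 1 and 3 differed by less than sampling noise, their mean entered as a single sample, which left n = 2 in each group. The labels do not say that libraries came from separate plants, so the spread on which every p-value rests is that of these libraries alone and may be technical. The outgrowth tables differed from the others in header and row order, and a difference in processing cannot be told apart from the stage. Marker lists gave a mixed check of the labels. Their loci follow the published rice gene numbering, which the files do not pair with names. The summed level of 6 photosynthesis genes was 3.00 to 5.11 CPM at outgrowth, 4.40 to 5.89 CPM at initiation and 255 to 667 CPM in control. The sum of 4 genes of dividing cells was 1053 to 1306 CPM at outgrowth, 1832 to 2235 CPM at initiation and 469 to 668 CPM in control. Of 6 crown root primordium genes, 1 was higher and 3 were lower at outgrowth than in control, where 12.8% and 13.6% of all genes were. At initiation 2 of them were higher and 2 lower, where 14.4% and 16.0% of all genes were. One of the lower ones, against the name of its list, was LOC_Os07g03250, with no read at outgrowth, 0.808 to 6.99 CPM at initiation and 150.4 to 156 CPM in control.

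**Figure D1:**
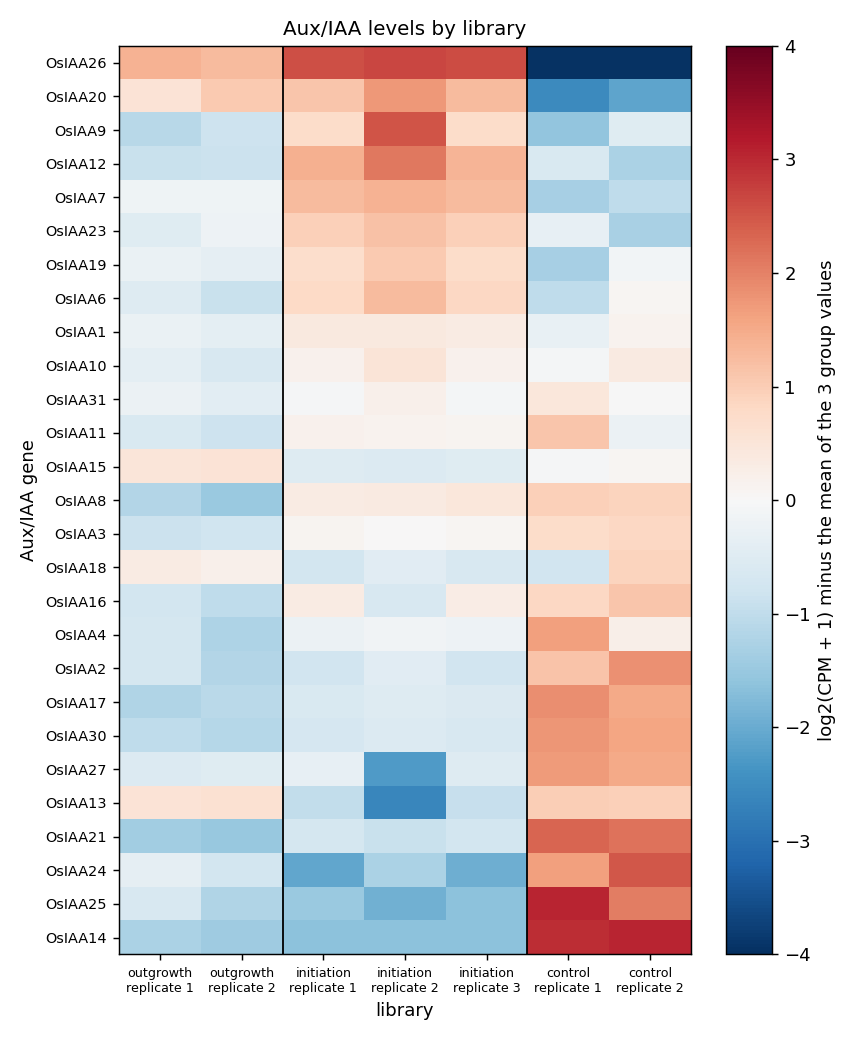
Level of the 27 Aux/IAA genes with reads (rows) in each of the 7 libraries (columns), as log2(CPM + 1) minus the mean of the 3 group values, where the scale ends at -4 and 4. Genes are sorted by their fold change between initiation and control: those at the top, from OsIAA26 down to OsIAA6, are red at initiation, and those at the bottom, from OsIAA2 to OsIAA14, are red in control.

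The whole family gave fewer reads in primordia. Summed over its members it had 1844 and 1719 CPM at outgrowth, 2855, 3283 and 2842 CPM at initiation, and 5765 and 5406 CPM in control, and the 3 groups did not overlap. OsIAA17 had the most reads over all libraries pooled, although OsIAA31 had more in each primordium library. Without OsIAA17 the sum was 1628 and 1482 CPM at outgrowth, 2526, 2931 and 2507 CPM at initiation, and 3955 and 3975 CPM in control. In tissue samples like these, fewer cells of a type and less RNA per cell cannot be told apart.

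The comparison of initiation with control asked which repressors distinguish a primordium as it forms. The family split: 7 members were higher in primordia at initiation and 10 were lower. A member was called where edgeR's quasi-likelihood test gave it an adjusted p under 0.05, and 27 members were tested. The higher share was 25.9% of members, against 14.4% of all 18836 genes tested, and the lower share was 37.0% against 16.0%. The median log2 fold change was -0.57 over the members and -0.05 over all genes. Without initiation replicate 2, 4 members were called higher and 9 lower, against 7.74% and 8.49% of all genes.

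OsIAA26 (LOC_Os09g35870) was read only in primordia. It had 40.1 and 36.1 CPM at outgrowth, 91.9, 97.4 and 93.3 CPM at initiation, and no read in either control library. Taking 3 reads over the control group as a floor, 0.0888 CPM, it was at least 1072-fold higher at initiation than in control (edgeR adjusted p = 8.68e-05). At outgrowth the bound was 429-fold (edgeR adjusted p = 9.85e-05). These bounds cover counting error only, and a failure to amplify was not tested: in control replicate 1, 699 genes had no read among 17559 for which the other control library predicted 10 or more.

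OsIAA20 (LOC_Os06g07040), whose knockdown lowers tolerance of drought and salt in rice, followed the same order. It had 7.51 and 10.9 CPM at outgrowth, 11.6, 18.5 and 12.9 CPM at initiation, and 0 and 0.354 CPM in control, where all its reads numbered 9 and came from replicate 2. Every primordium library lay above both control libraries. Against control, its log2 fold change was 6.11 ± 0.92 (SE) at initiation and 5.31 ± 0.90 at outgrowth (edgeR adjusted p = 0.00292 and 0.00498). Its size rests on the few control reads: without control replicate 1 the log2 fold changes were 5.49 and 4.69, and without control replicate 2 no control read was left.

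OsIAA12 (LOC_Os03g43410) was high at initiation alone. It had 19.1 and 19.3 CPM at outgrowth, 97.9, 158 and 95.3 CPM at initiation, and 23.3 and 14.3 CPM in control. The initiation libraries stood apart, while outgrowth lay between the control libraries. Relative to control, the log2 fold change was 2.87 ± 0.35 (SE) at initiation (edgeR adjusted p = 0.00133) and 0.09 ± 0.34 at outgrowth (edgeR adjusted p = 0.871).

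OsIAA7 (LOC_Os02g13520) was raised at both stages. It had 102.2 and 102.4 CPM at outgrowth, 277, 304 and 274 CPM at initiation, and 44.9 and 55.9 CPM in control, with no overlap between groups. The log2 fold change against control was 2.61 ± 0.20 (SE) at initiation and 1.06 ± 0.19 at outgrowth (edgeR adjusted p = 0.000279 and 0.00622). The outgrowth call was lost without outgrowth replicate 1 or 2 (edgeR adjusted p = 0.0505 and 0.0586).

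The other members called higher at initiation were OsIAA23, OsIAA6 and OsIAA19. OsIAA23 (LOC_Os06g39590), in which a stabilising mutation disrupts the quiescent centre of rice roots, had 20.8 and 25.5 CPM at outgrowth, 58.1, 68.5 and 58.4 CPM at initiation, and 23.5 and 11.4 CPM in control. Its initiation libraries lay above all others, and outgrowth overlapped control. It is given in full because of this known root role, a choice made after its values were seen. Its log2 fold change at initiation against control was 1.97 ± 0.38 (SE, edgeR adjusted p = 0.00761). OsIAA6 (LOC_Os01g53880), known in rice for a part in tiller outgrowth, had 56.2 and 43.1 CPM at outgrowth, 140.8, 197 and 144 CPM at initiation, and 39.5 and 86.5 CPM in control. It was highest at initiation in every library, with a log2 fold change against control of 1.52 ± 0.37 (SE, edgeR adjusted p = 0.0193). OsIAA19 (LOC_Os05g48590) averaged 87.2 ± 4.40 CPM at outgrowth, 204 ± 33.8 CPM at initiation and 71.6 ± 41.7 CPM in control (n = 2 each, SD), and its log2 fold change at initiation was 1.59 ± 0.38 (SE, edgeR adjusted p = 0.0169). None of the 3 kept its call without initiation replicate 2, where the edgeR adjusted p was 0.0551 for OsIAA23, 0.126 for OsIAA6 and 0.107 for OsIAA19. In all 3 genes the control libraries differed more than 2-fold, and the size of the change depends on them. Without control replicate 2 the log2 fold changes were 2.25 for OsIAA6, 2.42 for OsIAA19 and 1.58 for OsIAA23. Without control replicate 1 they were 1.04 for OsIAA6, 1.075 for OsIAA19 and 2.54 for OsIAA23.

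**Figure D2:**
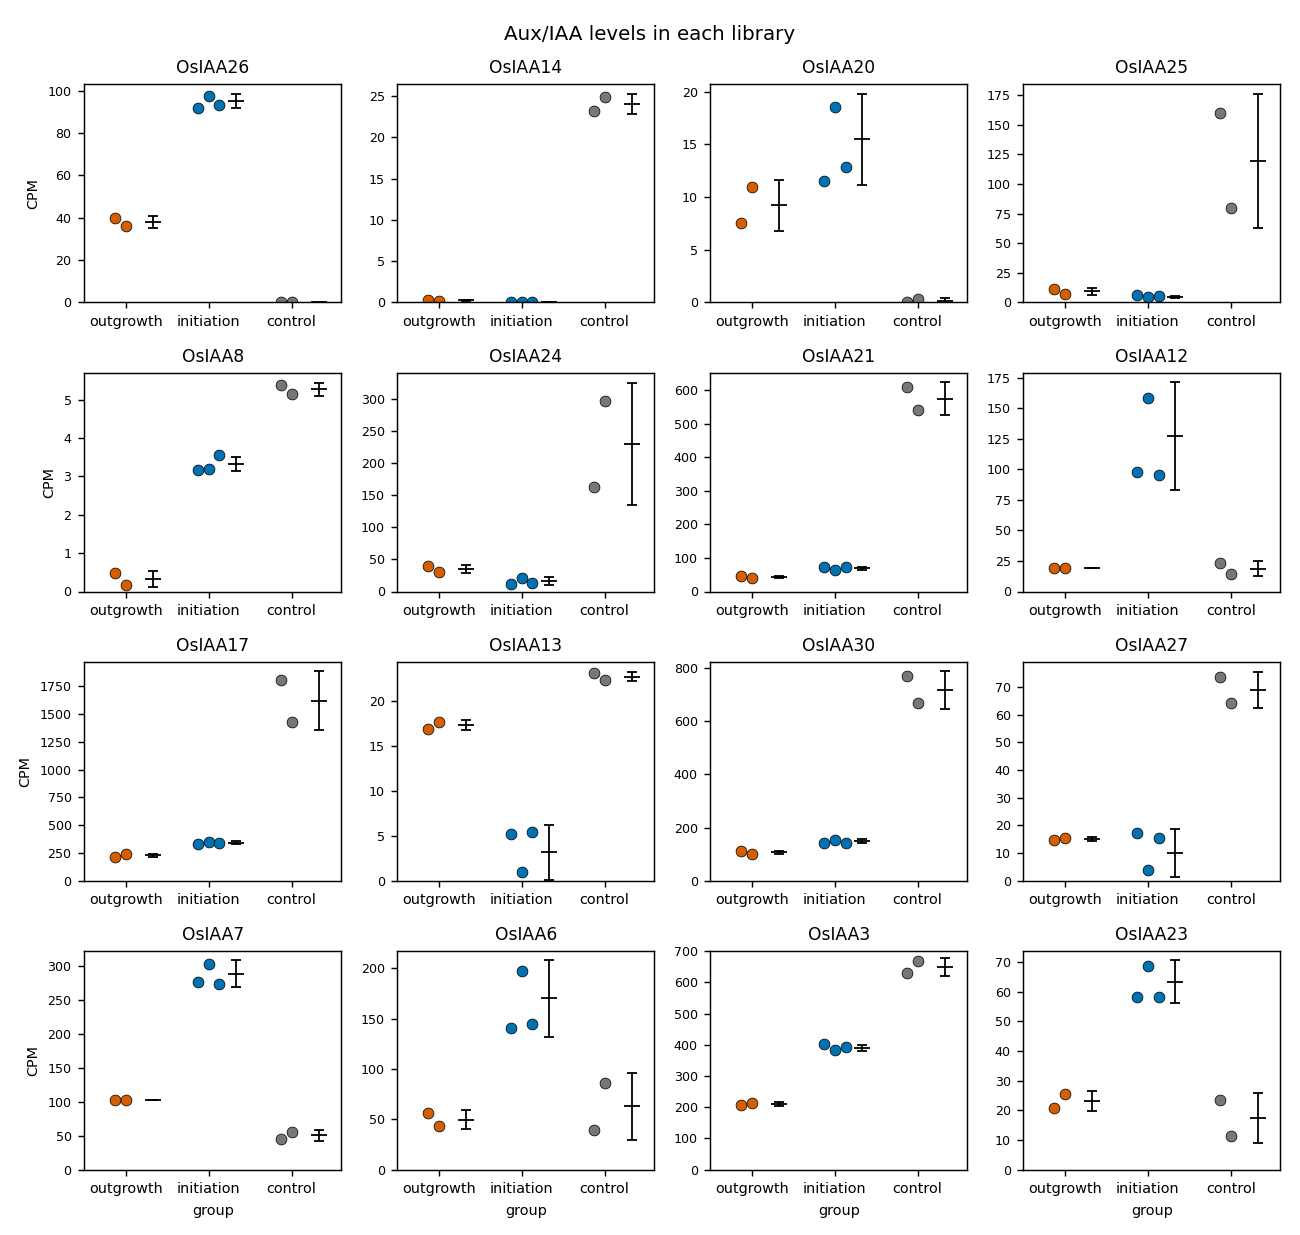
CPM of 16 Aux/IAA genes in each library, with 1 panel per gene and its own axis from 0, where dots are libraries, the bar beside them is the mean and the whiskers are the SD (n = 2, initiation replicates 1 and 3 averaged). OsIAA26, OsIAA20, OsIAA12, OsIAA7, OsIAA6 and OsIAA23 are highest at initiation, and OsIAA14, OsIAA25, OsIAA24, OsIAA21, OsIAA17 and OsIAA30 are several-fold higher in control than in any primordium library.

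Lower levels in primordia were called for 10 members at initiation, where 16.0% of all genes were lower. At outgrowth, tested against the same control libraries, 9 of these members were called lower as well. All genes were not counted in this way, so that count has no background to be set against. OsIAA14 (LOC_Os03g58350) was close to absent from primordia. It had 0.320 and 0.176 CPM at outgrowth, no read in the 3 initiation libraries, and 23.2 and 24.9 CPM in control. It was at least 251-fold lower at initiation against a floor of 0.0960 CPM, 3 reads over that group (edgeR adjusted p = 0.000748). At outgrowth its 6 reads gave a log2 fold change of -6.50 ± 0.72 (SE, edgeR adjusted p = 0.00141).

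OsIAA25 (LOC_Os08g01780) had 11.7 and 7.41 CPM at outgrowth, 5.96, 4.20 and 5.32 CPM at initiation, and 159.6 and 79.5 CPM in control. OsIAA24 (LOC_Os07g08460) had 39.9 and 30.9 CPM at outgrowth, 11.7, 21.1 and 12.6 CPM at initiation, and 162 and 297 CPM in control. In both genes the primordia were far below the control, although the control libraries themselves differed about 2-fold. For OsIAA25 the log2 fold change was -4.52 ± 0.44 (SE) at initiation and -3.60 ± 0.42 at outgrowth (edgeR adjusted p = 0.000647 and 0.00112). For OsIAA24 it was -3.69 ± 0.40 at initiation and -2.66 ± 0.38 at outgrowth (edgeR adjusted p = 0.000857 and 0.00243).

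Among the members with many reads, OsIAA21, OsIAA17 and OsIAA30 were lower in primordia. OsIAA21 (LOC_Os06g22870) had 44.8 and 41.6 CPM at outgrowth, 72.6, 64.9 and 72.4 CPM at initiation, and 609 and 541 CPM in control. OsIAA17 (LOC_Os05g14180) had 216 and 236 CPM at outgrowth, 329, 352 and 334 CPM at initiation, and 1809 and 1431 CPM in control. OsIAA30 (LOC_Os12g40890) had 111 and 100.9 CPM at outgrowth, 142, 153 and 143 CPM at initiation, and 769 and 668 CPM in control. In all 3 genes the order was the same, with control highest, outgrowth lowest and no overlap between groups. At initiation the log2 fold changes against control were -2.97 ± 0.18 for OsIAA21, -2.15 ± 0.19 for OsIAA17 and -2.19 ± 0.18 for OsIAA30 (SE), with edgeR adjusted p of 0.000137, 0.000408 and 0.000352. At outgrowth they were -3.69 ± 0.19, -2.79 ± 0.19 and -2.72 ± 0.18 (SE), with edgeR adjusted p of 8.29e-05, 0.000149 and 0.000136.

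OsIAA13 (LOC_Os03g53150), in which a stabilising mutation blocks lateral root formation in rice, was lower at initiation. It had 16.9 and 17.7 CPM at outgrowth, 5.17, 0.999 and 5.37 CPM at initiation, and 23.1 and 22.4 CPM in control. The initiation libraries lay below all others and replicate 2 lay lowest. Its log2 fold change against control was -2.76 ± 0.69 (SE) at initiation (edgeR adjusted p = 0.0202) and -0.35 ± 0.64 at outgrowth (edgeR adjusted p = 0.720). Without initiation replicate 2 the initiation value was -2.03 (edgeR adjusted p = 0.0327), and with no abundance trend of the dispersion it was not called (edgeR adjusted p = 0.0515).

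OsIAA27 (LOC_Os11g11410) had 14.6 and 15.4 CPM at outgrowth, 17.3, 3.80 and 15.3 CPM at initiation, and 73.5 and 64.3 CPM in control. Control lay above every primordium library, and initiation replicate 2 again lay lowest. Its log2 fold change was -2.72 ± 0.58 (SE) at initiation and -2.15 ± 0.57 at outgrowth (edgeR adjusted p = 0.0113 and 0.0279). Without initiation replicate 2 the initiation value was -2.04 (edgeR adjusted p = 0.0169). The outgrowth call was lost without outgrowth replicate 1 or 2 (edgeR adjusted p = 0.155 and 0.152).

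OsIAA2 and OsIAA3 complete the members lower at both stages. OsIAA2 (LOC_Os01g09450) averaged 40.9 ± 9.77 CPM at outgrowth, 50.6 ± 7.68 CPM at initiation and 225 ± 71.8 CPM in control (n = 2 each, SD). Its log2 fold change was -2.06 ± 0.29 (SE) at initiation and -2.42 ± 0.30 at outgrowth (edgeR adjusted p = 0.00225 and 0.00136). OsIAA3 (LOC_Os01g13030) had 207 and 214 CPM at outgrowth, 404, 383 and 394 CPM at initiation, and 629 and 669 CPM in control. It formed a staircase with small spread within each group. Its log2 fold change was -0.64 ± 0.16 (SE) at initiation and -1.58 ± 0.16 at outgrowth (edgeR adjusted p = 0.0191 and 0.000638). The initiation call was lost without initiation replicate 2 (edgeR adjusted p = 0.0791) and without outgrowth replicate 1 or 2, which enter through the shared spread (edgeR adjusted p = 0.0524 and 0.0527).

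Primordia at outgrowth were compared with control to ask the same of the later stage. Here 3 members were called higher, OsIAA7, OsIAA20 and OsIAA26, and 11 were called lower. The shares were 11.1% higher, against 12.8% of all genes tested, and 40.7% lower, against 13.6% of all genes. The median log2 fold change was -0.64 over the members and -0.02 over all genes. Without outgrowth replicate 1 or 2, 2 members were called higher and 8 lower, against 4.67% and 4.05% of all genes higher and 4.99% and 4.32% lower. Without control replicate 2, 6 of 26 members were called higher and 12 lower, against 4516 and 3074 of all 18029 genes then tested. Members that were called lower at outgrowth and not at initiation were OsIAA4 and OsIAA8, both with few reads. OsIAA8 (LOC_Os02g49160) had 0.479 and 0.176 CPM at outgrowth, 3.15, 3.20 and 3.56 CPM at initiation, and 5.39 and 5.15 CPM in control. Its outgrowth level rests on 8 reads, with a log2 fold change against control of -3.92 ± 0.90 (SE, edgeR adjusted p = 0.0170). That call was lost without outgrowth replicate 1 or 2, where the log2 fold changes were -4.78 and -3.39 (edgeR adjusted p = 0.105 and 0.199). OsIAA4 (LOC_Os01g18360) averaged 1.74 ± 0.709 CPM at outgrowth, 3.68 ± 0.158 CPM at initiation and 10.4 ± 7.37 CPM in control (n = 2 each, SD). Its call at outgrowth was marginal (log2 fold change -2.52 ± 0.78 (SE), edgeR adjusted p = 0.0478) and was lost without control replicate 1 (-1.55, edgeR adjusted p = 0.128), without outgrowth replicate 1 or 2 (edgeR adjusted p = 0.189 and 0.326) and without initiation replicate 2 (edgeR adjusted p = 0.0719). With the replicate block its edgeR adjusted p was 0.0659.

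**Figure D3:**
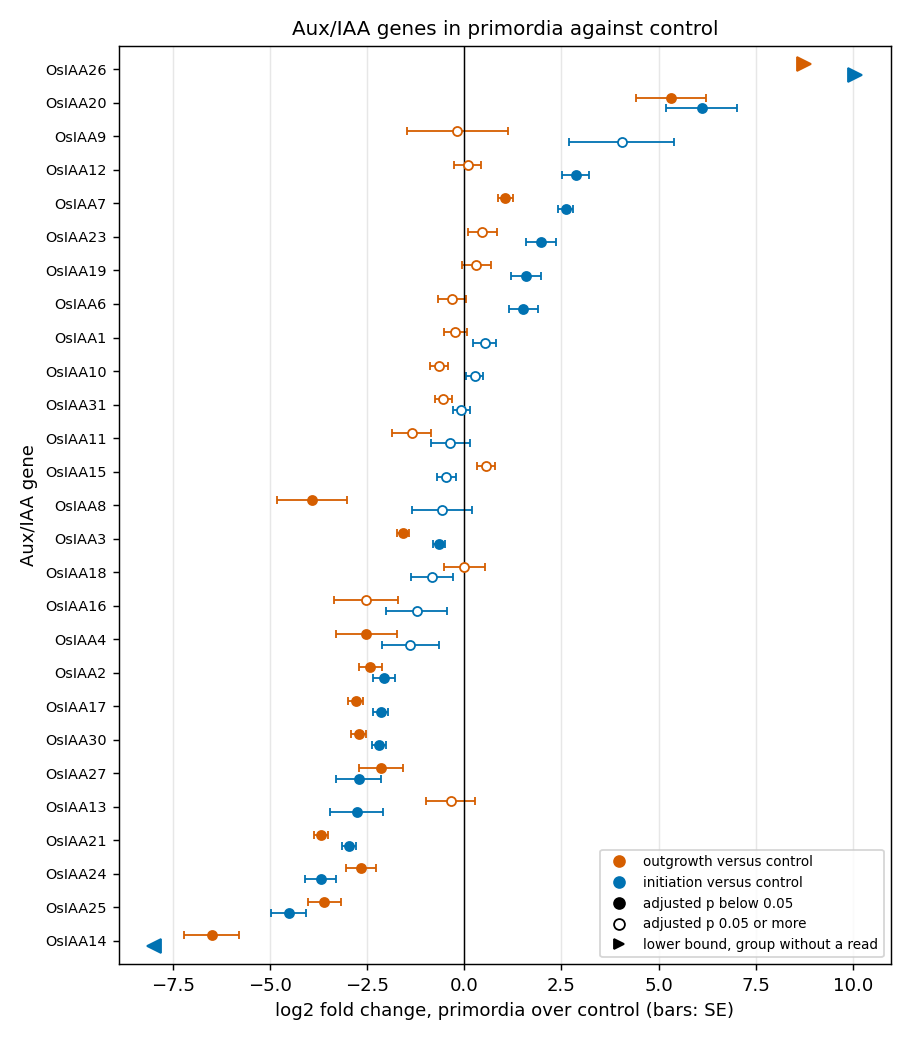
Log2 fold change of each of the 27 tested Aux/IAA genes at outgrowth over control (orange) and at initiation over control (blue), with bars for the SE, filled symbols at an edgeR adjusted p below 0.05, and triangles for lower bounds where a group had no read. From OsIAA12 to OsIAA6 the initiation points lie right of 0 and the outgrowth points nearer to it, while most genes below OsIAA4 lie left of 0 at both stages.

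Both comparisons use the same control libraries, so their values are set side by side and no overlap is drawn from them. By their own calls, 3 members were higher and 9 lower at both stages. Another 4 (OsIAA6, OsIAA12, OsIAA19 and OsIAA23) were higher at initiation without a call at outgrowth, and 1 (OsIAA13) was lower at initiation without one. All genes were not counted by these patterns, so the counts have no background to be set against. The calls that were missing at outgrowth do not show that the stages differ, which the comparison between stages tests for each gene. Without control replicate 2, OsIAA19 was called at outgrowth (log2 fold change 1.14, edgeR adjusted p = 0.00968), and without control replicate 1, OsIAA23 was (1.04, edgeR adjusted p = 0.0325). The photosynthesis and dividing-cell lists differed between primordia and control in every library, as given above, and their part in these results was not tested. The locus of the shoot meristem list, LOC_Os03g51690, also ran lower in primordia, with 13.1 to 15.0 CPM at outgrowth, 67.9 to 72.9 CPM at initiation and 415 to 429 CPM in control.

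Outgrowth was set against initiation to ask which repressors change as the primordium grows out. Lower levels at outgrowth were called for 5 members, OsIAA3, OsIAA6, OsIAA7, OsIAA12 and OsIAA26, and higher levels for 0. The share lower was 18.5% of the 27 members, against 1.84% of all genes tested, and of all genes 1.23% were higher. At an edgeR unadjusted p below 0.05, 14 members were lower and 4 higher. All genes were not counted at that level, so these counts have no background to be set against. DESeq2 called 13 members lower and 2 higher, against 5.13% and 4.46% of all genes. With limma on log2(CPM + 1), 5 members were lower and 1 was higher, against 2.43% and 2.86% of all genes. The median log2 fold change was -0.80 over the members and 0.03 over all genes, and 20 of the 27 members had a negative value.

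The steepest of these drops was that of OsIAA12, at -2.78 ± 0.35 (SE, edgeR adjusted p = 0.0114). Its outgrowth level lay within the control range given above. OsIAA6 differed by -1.83 ± 0.38 (SE, edgeR adjusted p = 0.0483) and its outgrowth level, too, lay within the control range. OsIAA7 differed by -1.55 ± 0.19 (SE, edgeR adjusted p = 0.0109) and OsIAA26 by -1.37 ± 0.24 (SE, edgeR adjusted p = 0.0365), and both still lay above control. OsIAA3 differed by -0.94 ± 0.16 (SE, edgeR adjusted p = 0.0264), further below control than at initiation. OsIAA23 missed the threshold, at -1.50 ± 0.37 (SE, edgeR adjusted p = 0.0804), but was called without control replicate 1 or 2 (edgeR adjusted p = 0.0102 and 0.00979). OsIAA13 went the other way, at 2.42 ± 0.68 (SE, edgeR adjusted p = 0.112). Without initiation replicate 2 it was at 1.68 (edgeR adjusted p = 0.230), and with all libraries DESeq2 (DESeq2 adjusted p = 0.0102) and edgeR with no low filter (edgeR adjusted p = 0.00619) called it. OsIAA15 was also higher in both outgrowth libraries, at 1.02 ± 0.24 (SE, edgeR adjusted p = 0.0690), which was called without control replicate 1 or 2 (edgeR adjusted p = 0.0194 in both). OsIAA3, OsIAA6 and OsIAA7 are given with all values because so few members were called, a choice made after their values were seen.

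None of these 5 calls held without initiation replicate 2, without outgrowth replicate 1 or without outgrowth replicate 2. The loss was not particular to the family, since of all genes 15, 0 and 0 were called in these cases. With all libraries and no abundance trend of the dispersion 0 members were called, as of all genes. Without control replicate 1, or without control replicate 2, 12 of 26 members were called lower and 1, OsIAA15, higher, against 5.06% and 5.05% of all genes lower and 4.90% and 4.83% higher. The members gained in both of those cases were OsIAA8, OsIAA9, OsIAA10, OsIAA15, OsIAA17, OsIAA19, OsIAA21 and OsIAA23. Without initiation replicate 2, outgrowth replicate 1 or outgrowth replicate 2 the 5 log2 fold changes stayed negative, between -0.89 for OsIAA3 and -2.79 for OsIAA12, with edgeR adjusted p of 0.111 to 0.358. The 4 genes of dividing cells also ran lower at outgrowth, 2 of them past the test, where 1.84% of all genes were. Their part in these results was not tested.

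**Figure D4:**
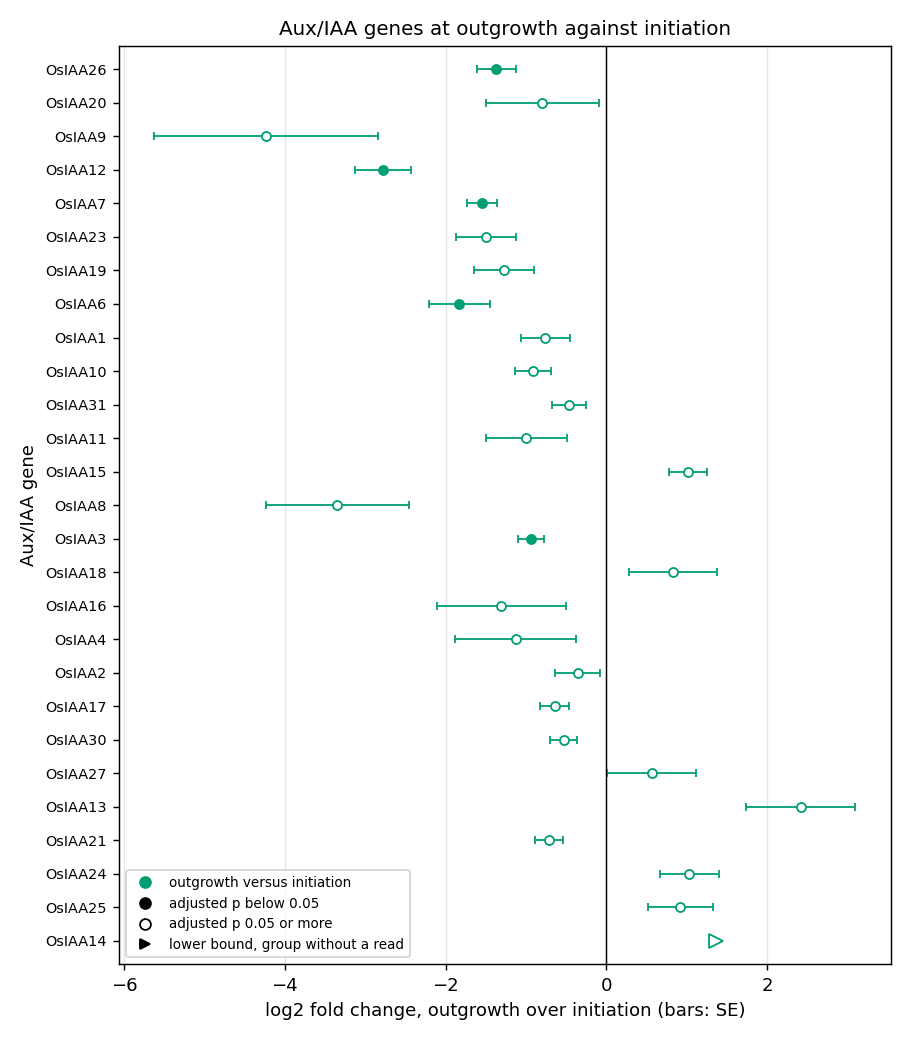
Log2 fold change of each of the 27 tested Aux/IAA genes at outgrowth over initiation, in the same gene order, with bars for the SE, filled symbols at an edgeR adjusted p below 0.05 and a triangle for a lower bound. Filled points are OsIAA26, OsIAA12, OsIAA7, OsIAA6 and OsIAA3, and 20 of the 27 points lie left of 0.

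Neighbouring members of the family did not always move together. In the RefSeq annotation no other gene lies between OsIAA11 and OsIAA12 or between OsIAA30 and OsIAA31, and reads of related neighbours may have been divided between them. OsIAA11 (LOC_Os03g43400), in which a stabilising mutation blocks lateral root formation in rice, had 8.63 and 7.32 CPM at outgrowth, 15.9, 15.5 and 15.0 CPM at initiation, and 30.7 and 11.6 CPM in control. The initiation libraries lay between the control libraries, so the initiation change of OsIAA12 was not matched by a call in its neighbour (log2 fold change -0.35 ± 0.50 (SE), edgeR adjusted p = 0.625, and 0.47 without control replicate 1). At outgrowth OsIAA11 was called lower than control without control replicate 2 (log2 fold change -1.85, edgeR adjusted p = 0.00500). OsIAA31 (LOC_Os12g40900) had 454 and 397 CPM at outgrowth, 519.6, 621 and 509 CPM at initiation, and 741 and 530.3 CPM in control. Initiation and control overlapped, with initiation replicates 1 and 3 below both control libraries and replicate 2 between them, and with log2 fold changes of -0.07 ± 0.21 at initiation and -0.53 ± 0.22 at outgrowth (SE, edgeR adjusted p = 0.833 and 0.107, and 0.0339 at outgrowth without control replicate 2), where OsIAA30 was called lower at both stages. The differences between neighbours were not tested. OsIAA28 and OsIAA29, next to OsIAA27 in the numbering, were among the 4 genes listed in no table, with OsIAA5 and OsIAA22. A count of 0 allows up to 0.118 CPM in control replicate 2, the deepest library, and up to 0.359 CPM in control replicate 1.

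Of the 27 members tested, 8 were called in none of the comparisons. OsIAA10 (LOC_Os02g57250), a target of a Rice dwarf virus protein, had 237 and 199.6 CPM at outgrowth, 351, 442 and 348 CPM at initiation, and 297 and 404 CPM in control. Outgrowth was lowest, but the log2 fold change against initiation of -0.91 ± 0.23 (SE) missed the threshold (edgeR adjusted p = 0.0804, and 0.0315 and 0.0304 without control replicate 1 or 2), and it was called in 6 of 18 alternatives. OsIAA15 (LOC_Os05g08570) had 51.2 and 52.9 CPM at outgrowth, 25.2, 24.4 and 25.3 CPM at initiation, and 34.6 and 38.2 CPM in control. Its groups did not overlap, yet none of its fold changes passed the main edgeR test. Between the stages it was called in 8 of 18 alternatives, among them DESeq2 (DESeq2 adjusted p = 0.00223) and limma on log2(CPM + 1) (limma adjusted p = 0.0373). OsIAA9 (LOC_Os02g56120) had 0.399 and 0.706 CPM at outgrowth, 4.03, 16.2 and 3.99 CPM at initiation, and 0 and 1.14 CPM in control. Every initiation library was above all others, with a log2 fold change against control of 4.06 ± 1.35 (SE, edgeR adjusted p = 0.0558). It was called at initiation in 7 of 17 alternatives, among them DESeq2 (DESeq2 adjusted p = 0.00773) and limma on log2(CPM + 1) (limma adjusted p = 0.0153). Without control replicate 2, which held all of its control reads, it was called (edgeR adjusted p = 0.00951), and without initiation replicate 2 its log2 fold change was 2.73 (edgeR adjusted p = 0.290). OsIAA1, OsIAA16 and OsIAA18 averaged between 1.08 CPM, for OsIAA16 at outgrowth, and 31.1 CPM, for OsIAA1 at initiation. Their edgeR adjusted p lay between 0.0567, for OsIAA16 at outgrowth against control, and 0.992, for OsIAA18 in the same comparison. In that comparison OsIAA16 was called in 9 of 18 alternatives, among them DESeq2 (DESeq2 adjusted p = 0.0204) and limma on log2(CPM + 1) (limma adjusted p = 0.0193). Leaving out a control library gave each of these 3 a call, at initiation for OsIAA1 without control replicate 2 (edgeR adjusted p = 0.0443) and for OsIAA18 without control replicate 1 (edgeR adjusted p = 0.00939), and at outgrowth for OsIAA16 without control replicate 1 (edgeR adjusted p = 0.0405). The log2 fold changes were 0.83 for OsIAA1, -1.46 for OsIAA18 and -2.71 for OsIAA16. OsIAA18 was called in the other direction at outgrowth without control replicate 2 (log2 fold change 1.20, edgeR adjusted p = 0.0338), and OsIAA16 was also called at outgrowth without initiation replicate 2 (edgeR adjusted p = 0.0462).

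The partners of the family were taken from lists of loci in the published numbering. Of 25 ARF loci, 23 were tested. At outgrowth 1 was higher and 12 lower than in control, where 12.8% and 13.6% of all genes were, with a median log2 fold change of -1.16 against -0.02 over all genes. At initiation 2 were higher and 12 lower, where 14.4% and 16.0% of all genes were, with a median of -0.56 against -0.05. Between the stages 4 were lower at outgrowth, where 1.84% of all genes were, and 19 were not called. These 4 calls were lost with no abundance trend of the dispersion, where 0 of all genes were called between the stages. They were also lost without outgrowth replicate 1 or 2. LOC_Os04g43910 was the ARF locus with the widest difference, at 43.8 and 32.7 CPM at outgrowth, 37.2, 33.3 and 36.8 CPM at initiation, and 0.359 and 0.157 CPM in control. It was called higher at both stages, with log2 fold changes of 7.45 ± 0.49 at outgrowth and 7.37 ± 0.49 at initiation (SE, edgeR adjusted p = 0.000134 and 0.000174). LOC_Os04g56850 ran the other way, with 18.5 and 17.1 CPM at outgrowth, 51.2, 92.1 and 50.8 CPM at initiation, and 344 and 273 CPM in control. It was lower than control at both stages and lower at outgrowth than at initiation (log2 fold change -2.06 ± 0.31 (SE), edgeR adjusted p = 0.0195). LOC_Os12g29520 followed the same order, with 22.0 and 18.2 CPM at outgrowth, 45.0, 39.8 and 46.4 CPM at initiation, and 179 and 185 CPM in control (log2 fold change between stages -1.14 ± 0.20 (SE), edgeR adjusted p = 0.0292).

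Of 5 TIR1/AFB receptor loci, 1 was higher and 2 were lower at outgrowth than in control, where 12.8% and 13.6% of all genes were. At initiation 3 were lower, where 16.0% of all genes were. The higher one, LOC_Os02g52230, had 276 and 236 CPM at outgrowth, 161, 130.7 and 168 CPM at initiation, and 130.5 and 149.7 CPM in control. Outgrowth lay above the other groups, which overlapped, and its log2 fold change against control was 0.91 ± 0.19 (SE, edgeR adjusted p = 0.0125). LOC_Os11g31620 and LOC_Os04g32460 were lower at both stages, with log2 fold changes of -1.18 and -0.75 at outgrowth (edgeR adjusted p = 0.0239 and 0.0310). Of 3 TOPLESS-type corepressor loci, LOC_Os01g15020 was lower at both stages, where 13.6% of all genes were lower at outgrowth and 16.0% at initiation. It had 44.6 and 42.2 CPM at outgrowth, 22.1, 8.13 and 21.5 CPM at initiation, and 239 and 118 CPM in control, with no overlap between groups. Its log2 fold change was -1.99 ± 0.47 (SE) at outgrowth and -3.49 ± 0.50 at initiation (edgeR adjusted p = 0.0189 and 0.00243). The other 2 missed the threshold in every comparison.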

How the data were processed

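Each of the 7 deposited tables lists genes with a value. Although the file headers say FPKM, the deposited values are whole-number counts of at least 1 that sum to 8351775 to 25448025, so they were used as read counts, and an unlisted gene was taken as 0. The aligner was STAR, as the submitters' processing notes state. Not given in the sources used here are the counter, its strand setting, the genome build and the annotation. A PicoPure kit for RNA and a SMARTer low-input kit for amplification are named in the labels' protocols. No molecular identifiers are mentioned there, so floors cover counting error only.

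Counts of initiation replicates 1 and 3 were averaged and rounded. A filter of 1 CPM or more in 2 or more libraries left 18836 genes, which entered a joint fit of the 3 group means in edgeR 4.0.16 (R 4.3.3) with TMM scaling and glmQLFTest, two-sided, with Benjamini-Hochberg adjustment over all genes and a threshold of 0.05. The fit had 3 residual degrees of freedom. The step was also run on simulated counts, drawn as independent samples, so that run does not bear on whether the spread of these libraries is technical. Each SE is the fold change divided by the square root of its F statistic. Printed CPM use file totals. Alternatives used DESeq2 1.42.0, limma 3.58.1, other scalings, filters and sets of libraries.

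Gene names follow the family's numbering. Of the 31, 28 matched a single RefSeq entry of that name on the same chromosome (ASM3414082v1), in the same order. Earlier results of these data were known when the family and the lists were chosen. Within the family no measured value selected members, since all 31 numbered genes were taken. Values in every library were given for the 12 called members with the largest absolute log2 fold change and for their neighbours. They were also given, outside that rule, for OsIAA3, OsIAA6, OsIAA7, OsIAA9, OsIAA10, OsIAA15 and OsIAA23. The part of the rule that needed coding lengths was dropped, as none were at hand. Called genes of the other lists were named by size of change, up to 3 per list.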

Additional observations from a re-analysis of the deposited data

Results flagged for a closer look

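For 5 genes the effect against control differed between the stages, by the test of outgrowth against initiation itself, with the values already described. The log2 fold change was -0.94 for OsIAA3, -1.83 for OsIAA6, -1.55 for OsIAA7, -2.78 for OsIAA12 and -1.37 for OsIAA26. In each of them both outgrowth libraries lay below all 3 initiation libraries, which adds no support, as the genes were picked by that same comparison.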

How the results depend on the processing

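Of the members called, 12 of 17 kept their call at initiation and 10 of 14 at outgrowth under every alternative that tested them, and OsIAA14 was not tested without either control library. Leaving out 1 library gave 13 to 19 members called at initiation against control, 10 to 18 at outgrowth against control and 0 to 13 between the stages. Between the stages, where 5 were called, the count was 15 with DESeq2, 13 with no low filter, 13 with only the groups compared, 12 with initiation replicates 1 and 3 as separate samples and 0 with no abundance trend. Of all genes, 4.46% were then higher and 5.13% lower with DESeq2, and 3.21% and 3.06% with no low filter. With only the groups compared they were 5.30% and 5.72%, with separate samples 4.13% and 4.42%, and with no abundance trend 0. The cause of these shifts was not tested. Over all genes the number called was 3026 to 8018, 1548 to 7590 and 0 to 1951, against 5721, 4981 and 578.

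The numbers shared by replicates are not stated to pair libraries, and differences between replicates correlated across genes at -0.0267 to 0.0224 between groups. With the replicate block 8 members were higher and 10 lower at initiation, where 13.3% and 14.1% of all genes were. At outgrowth 3 were higher and 10 lower, against 11.6% and 11.9% of all genes. Between the stages 4 were lower and 0 higher, against 1.94% and 1.40% of all genes. In that fit OsIAA4 at outgrowth against control and OsIAA26 between the stages lost their calls (edgeR adjusted p = 0.0659 and 0.0519). OsIAA9 gained one at initiation (edgeR adjusted p = 0.0275).

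Sign changes occurred only in log2 fold changes that were not called. Over the left-out libraries, the ranges of these at initiation against control were -0.85 to 0.47 for OsIAA11 and -0.24 to 0.16 for OsIAA31, positive without control replicate 1, and -1.46 to 0.37 for OsIAA18, positive without control replicate 2. At outgrowth against control they were -0.47 to 0.076 for OsIAA1, -0.79 to 0.42 for OsIAA6, -1.03 to 5.82 for OsIAA9 and -0.19 to 0.44 for OsIAA12, turned without control replicate 2, -0.63 to 1.20 for OsIAA18 and -0.20 to 1.14 for OsIAA19, turned without control replicate 1. OsIAA9 and OsIAA18 also turned without outgrowth replicate 1 (0.22 and -0.046). Between the stages the range was -0.12 to 0.62 for OsIAA27, negative without initiation replicate 2. OsIAA18 also turned with file totals (-0.033) and at 5 CPM (-0.0077), and OsIAA9 with limma on log2(CPM + 1) (0.079) and log2(CPM + 0.1) (0.85) and with the replicate block (0.55).

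With no abundance trend, calls were lost for OsIAA3, OsIAA6, OsIAA13 and OsIAA19 at initiation (edgeR adjusted p = 0.104, 0.0708, 0.0515 and 0.0660) and for OsIAA4 and OsIAA27 at outgrowth (edgeR adjusted p = 0.0507 and 0.0794). Between the stages OsIAA6 missed the threshold with file totals (edgeR adjusted p = 0.0507), and OsIAA26 with limma on log2(CPM + 1) (limma adjusted p = 0.0623).

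Depth limits the members with few reads, OsIAA4, OsIAA8, OsIAA9, OsIAA14, OsIAA16 and OsIAA20, whose fold changes have large errors or are bounds.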
